A study of Mus musculus with 2 samples.

Results

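Liver transcripts of 36 genes for plasma coagulation and complement proteins were compared between 1 control and 1 iFIRKO library. The genes were chosen by name, 19 for coagulation and clot breakdown and 17 for complement, and each symbol was found on 1 row of both deposited files, out of 53342 rows. The rule itself uses no measured value, but the genes were put together with earlier results of these data known. All 36 passed the expression minimum. The libraries came from the liver of male mice that were 7 weeks old when tamoxifen was begun. Tamoxifen was given to both groups on 5 days at 100 mg/kg, and the tissue was taken 3 days after the last dose. iFIRKO mice carry Adipoq-CreERT2, a tamoxifen-inducible Cre recombinase driven by the adiponectin promoter, together with Insr flox/flox, so that the insulin receptor gene is deleted in adipocytes and not in hepatocytes. The sample labels give the control genotype as WT, whereas the methods describe the control mice as IR flox/flox. Neither source states whether a library came from 1 mouse or from several. With 1 library per genotype there is no replicate error, no test was possible, and the differences below are differences between 2 libraries.

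Hepatocytes are the main source of most clotting factors and complement proteins in plasma. Clotting proceeds through a chain of serine proteases that ends with thrombin, which cuts fibrinogen into fibrin, and plasmin later dissolves the fibrin. Complement is a second protease chain with a classical, a lectin and an alternative branch. These meet at C3, and C5 to C9 then form the membrane attack complex, a pore in the target membrane. Several proteins of both systems, among them fibrinogen and C3, are acute phase proteins, whose synthesis increases during inflammation.

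The authors' values are log2 normalized read counts and were returned to the linear scale, here called normalized reads. The libraries held an estimated 21138484 read pairs on genes in control and 20652740 in iFIRKO. Fold changes compare iFIRKO with control after adding a pseudocount of 4.18 normalized reads to each, and a gene was called higher or lower when it passed the study's limit of 1.5-fold (0.58 on the log2 scale). The 95% intervals are exact Clopper-Pearson intervals on estimated read pairs, which cover counting error only and leave out variation between mice. They are given in brackets after a log2 fold change. The intervals are of the plain ratio, without the pseudocount, so for genes with few reads they are not centred on the printed fold change. *Insr* itself stood at 4246 normalized reads in control against 3692 in iFIRKO, for a log2 fold change of -0.20; since the deletion is in adipocytes, this value does not check the genotype labels. Of 10 hepatocyte markers, 9 were listed in the files, led by albumin (*Alb*) with 4167154 and 3944155 normalized reads. Of these 9, 6 were lower in iFIRKO and 3 higher, the median log2 fold change was -0.08, and 1 was called lower, *Apoa1* (apolipoprotein A-I), with 168382 and 87600 normalized reads (-0.94). Their sum was 5196845 in control and 4861644 in iFIRKO, a difference of -6.45%, against -14.1% for the sum of the members. Most of the marker sum was *Alb*. Of 4 adipocyte markers, *Adipoq*, *Plin1* and *Lep* were at 2.01 normalized reads or below in both libraries, and *Cidec*, a lipid droplet gene, was called higher, with 17.9 and 108 normalized reads (2.35, interval 1.57 to 3.81). All 7 Kupffer cell markers were lower in iFIRKO, 4 of them past 1.5-fold, and their summed level was 29295 normalized reads in control and 19166 in iFIRKO. All 6 endothelial markers were lower as well, 2 of them past 1.5-fold, with sums of 8927 and 6404. Of the other marker lists, 2 of 5 neutrophil genes were tested and both were called lower (*S100a8* and *S100a9*), 3 of 4 platelet genes were tested and 1 was called lower, and 0 of 4 stellate cell genes were called. The part of these cell types in the members' values was not tested. In bulk tissue, fewer cells of a type and less RNA per cell cannot be told apart.

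Most of the 36 genes were slightly lower in the iFIRKO library. The log2 fold change was below 0 for 30 genes and above 0 for 6, and its median was -0.14, against 0.01 over the 13400 genes tested. A single member, *C2*, was past 1.5-fold, and it was lower. The background was 4.46% of all tested genes called higher and 7.28% called lower. Since the members are abundant, they were also set beside the 2437 tested genes with at least as many reads as the lowest member (2515 normalized reads in its higher library). Of these, 3.41% were called higher and 3.69% lower, 46.9% had a log2 fold change below 0, and the median was 0.01. The share of members called was thus no larger than that background. Below 0 were 83.3% of the members, and the differences were mostly small, with 25 of the 36 within 1.2-fold. The counting interval lay below 0 for 27 members, above 0 for 3 and included 0 for 6. At these read numbers the intervals are narrow, and the same share among the 2437 genes was not counted. These counts therefore do not set the members apart from other abundant genes.

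**Figure D1:**
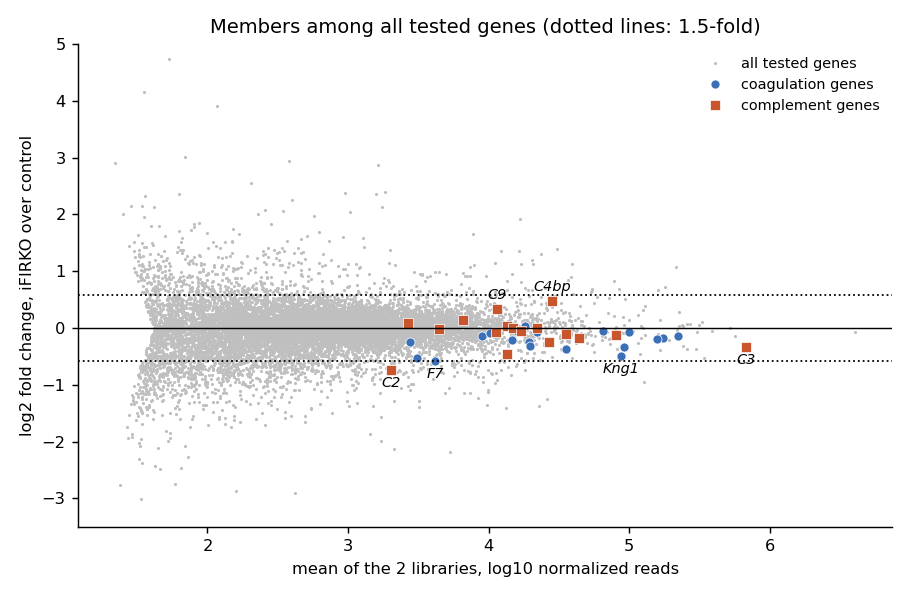
Each grey point is 1 of 13400 tested genes, plotted by the mean of both libraries (log10 normalized reads, x axis) and the log2 fold change of iFIRKO over control (y axis); circles are the 19 coagulation genes, squares the 17 complement genes, and dotted lines mark 1.5-fold. Most members sit just below 0, with *C2* alone beyond the lower line and *C4bp* and *C9* highest.

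Together the 36 genes took up 5.32% of all normalized reads in control and 4.61% in iFIRKO. The summed level fell by 315043 normalized reads, and *C3* alone made up 49.7% of that difference. *C3*, *Kng1*, *Fga*, *Plg* and *Fgg* together made up 79.1%. The coagulation genes summed to 1142251 normalized reads in control and 996856 in iFIRKO. The complement genes summed to 1090983 and 921336, and to 340603 and 327480 when *C3* was left out. Thus the difference in the complement sum was mainly that of *C3*. The difference in the coagulation sum had no single such gene. Its largest parts were *Kng1* (29258 normalized reads), *Fga* (21738), *Plg* (21175), *Fgg* (20564) and *Fgb* (20400), which made up most of it.

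**Figure D2:**
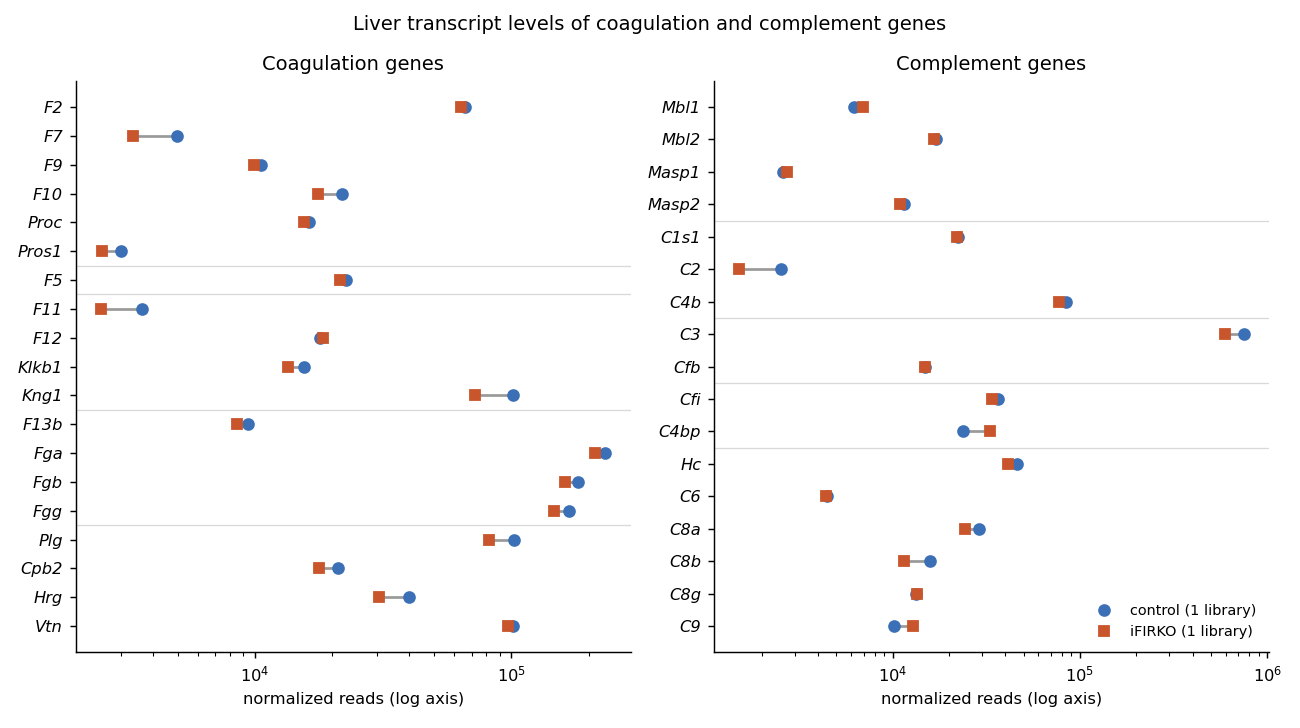
Normalized reads (x axis, log scale) of each gene in the control library (circles) and the iFIRKO library (squares), 1 library each, with grey lines between the roles described in the text. *C3* is the highest at 750380 and 593856 normalized reads, and *C2* is the lowest in iFIRKO at 1511.

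Among the 19 coagulation genes, 18 were lower in the iFIRKO library and 1, *F12*, was higher, and none passed 1.5-fold in either direction. The median log2 fold change was -0.19, the lowest value was -0.57 and the highest 0.04. For all 18 lower genes the counting interval lay below 0, with no count over other genes of this level to set beside it.

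**Figure D3:**
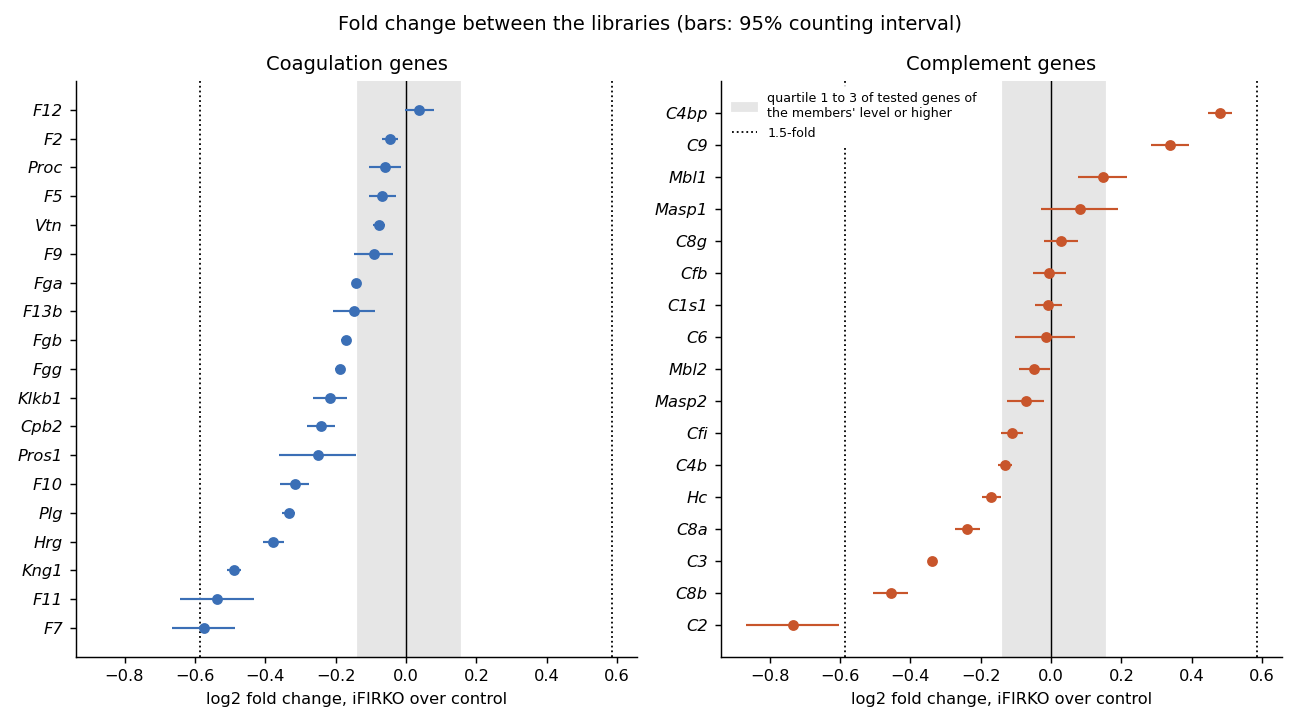
Log2 fold change of iFIRKO over control (x axis) for each gene, sorted within coagulation and complement; bars are 95% counting intervals, dotted lines mark 1.5-fold and the grey band runs from quartile 1 to quartile 3 (-0.14 to 0.15) of the 2437 tested genes of the members' level or higher. The coagulation genes run from -0.57 (*F7*) to 0.04 (*F12*), and the complement genes spread from -0.73 (*C2*) to 0.48 (*C4bp*).

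The vitamin K-dependent proteins are made with carboxylated glutamates that bind calcium and attach them to membranes. All 6 of their genes were lower in iFIRKO, with a median log2 fold change of -0.17, but by unequal amounts. *F7* encodes factor VII, which starts clotting together with tissue factor. It stood at 4983 normalized reads in control against 3346 in iFIRKO, for a log2 fold change of -0.57 (-0.67 to -0.48). This was the lowest value among the coagulation genes and stopped just short of the 1.5-fold limit, at 1.49-fold lower. *F10*, the gene of factor X, which forms the enzyme that activates prothrombin, had 21908 and 17594 normalized reads, a log2 fold change of -0.32 (-0.36 to -0.28). The prothrombin gene *F2* was the most abundant of the 6, with 66014 and 63923 normalized reads, and was nearly level at -0.05 (-0.07 to -0.02). The factor IX gene *F9*, on the X chromosome, had 10612 and 9956 normalized reads and a log2 fold change of -0.09 (-0.15 to -0.04). The genes of the anticoagulant members were lower as well. Protein C, encoded by *Proc*, inactivates factors V and VIII, and its gene had 16285 and 15622 normalized reads, a log2 fold change of -0.06. Its cofactor protein S, encoded by *Pros1*, had 3017 and 2535 normalized reads, a log2 fold change of -0.25 (-0.36 to -0.14). *F5*, the gene of the factor V cofactor of factor X, had 22602 and 21573 normalized reads and a log2 fold change of -0.07.

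The contact system starts clotting on negatively charged surfaces and releases bradykinin from kininogen. Its 4 genes had a median log2 fold change of -0.35, the lowest of the coagulation roles with more than 1 gene, yet they did not move alike. *Kng1*, the kininogen gene, stood at 101620 normalized reads in control against 72362 in iFIRKO, for a log2 fold change of -0.49 (-0.51 to -0.47). It was the coagulation gene with the largest difference in reads. *Kng2* is a close paralog on the same chromosome, so reads could be split between them; it had 12935 and 10014 normalized reads, and both genes summed gave a log2 fold change of -0.48. *F11*, the factor XI gene, had 3643 and 2511 normalized reads, a log2 fold change of -0.54 (-0.64 to -0.43). *Klkb1*, which encodes plasma prekallikrein, had 15619 and 13444 normalized reads and a log2 fold change of -0.22 (-0.26 to -0.17). It shares 43.2% of its exon length with *Gm45753* on the same strand, which had 2.67 normalized reads or fewer. *F12*, whose product factor XII activates both prekallikrein and factor XI, had 18004 and 18487 normalized reads. Its log2 fold change of 0.04 had an interval from -0.00 to 0.08, so a difference was not detectable at this depth.

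Fibrinogen is built from 3 chains, encoded by *Fga*, *Fgb* and *Fgg*, which lie side by side on chromosome 3 with gaps of 11026 bases (*Fgg* to *Fga*) and 6513 bases (*Fga* to *Fgb*). *Fga* stood at 232679 normalized reads in control against 210941 in iFIRKO. *Fgb* had 182566 and 162166, and *Fgg* had 167817 and 147253. The 3 log2 fold changes were -0.14, -0.17 and -0.19, so the chains differed from each other by at most 0.05 on the log2 scale. Per kb of annotated exons, *Fga* and *Fgg* were close, at 77302 and 80180 normalized reads per kb in control, and *Fgb* was lower at 47918. In iFIRKO the levels per kb were 70080, 70355 and 42563. The ratio of *Fgb* to *Fga* per kb was 0.620 in control and 0.607 in iFIRKO. *F13b*, which encodes the carrier chain of the fibrin-crosslinking factor XIII, had 9428 and 8514 normalized reads and a log2 fold change of -0.15 (-0.21 to -0.09).

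**Figure D4:**
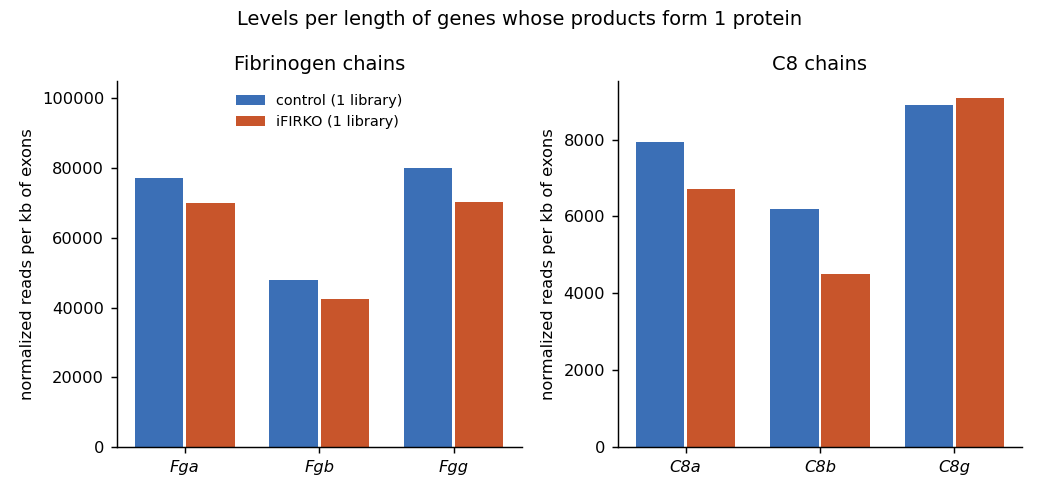
Normalized reads per kb of annotated exons (y axis, from 0) of the fibrinogen chains (left) and the C8 chains (right) in the control and iFIRKO libraries, 1 library each. The fibrinogen chains are lower in iFIRKO by similar amounts, whereas among the C8 chains *C8b* is lower, from 6181 to 4506, and *C8g* is not, at 8893 and 9069.

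The fibrinogen genes are shown with the bases just upstream of their RefSeq starts (GRCm38.p6), since they are neighbours whose folds lay close together. Capitals mark matches on either strand to CTGGGAA (the core of an interleukin-6 response element), TTCNNNGAA (STAT), TTGCNNAA (C/EBP) and GTTAAT, the letters searched together with CAAAGTCCA (HNF4). The windows are chr3:83025903-83026152 on the forward strand for *Fga*, chr3:83049864-83050113 on the reverse strand for *Fgb* and chr3:83007474-83007723 on the forward strand for *Fgg*.
Fga: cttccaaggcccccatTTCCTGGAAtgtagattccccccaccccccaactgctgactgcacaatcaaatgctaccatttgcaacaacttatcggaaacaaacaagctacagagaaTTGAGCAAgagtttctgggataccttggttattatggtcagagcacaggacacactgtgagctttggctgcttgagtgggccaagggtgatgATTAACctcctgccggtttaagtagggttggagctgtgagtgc
Fgb: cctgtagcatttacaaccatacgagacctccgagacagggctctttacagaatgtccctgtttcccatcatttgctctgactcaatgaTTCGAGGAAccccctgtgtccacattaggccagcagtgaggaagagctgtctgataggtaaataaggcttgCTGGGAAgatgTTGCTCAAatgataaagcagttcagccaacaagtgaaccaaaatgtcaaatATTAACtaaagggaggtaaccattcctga
Fgg: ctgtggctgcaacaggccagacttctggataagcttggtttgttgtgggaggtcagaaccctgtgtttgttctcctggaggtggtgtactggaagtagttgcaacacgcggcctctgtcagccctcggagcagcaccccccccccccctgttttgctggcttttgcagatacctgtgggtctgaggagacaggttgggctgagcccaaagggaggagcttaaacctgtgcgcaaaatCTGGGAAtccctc
With the RefSeq start counted as 0, the GTTAAT match ended at -38 in *Fga* and at -24 in *Fgb*. The CTGGGAA match began at -91 in *Fgb* and at -13 in *Fgg*, and *Fga* held none in this window. Matches to TTCNNNGAA and TTGCNNAA were found in *Fga* and *Fgb*.

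RefSeq windows that also hold the bases just after the start were found for 28 of the 36 members. The others were *Proc*, *Kng1*, *Plg*, *C2*, *C4b*, *Cfb*, *Cfi* and *Masp1*. GTTAAT was found in 9 of the 28 members (32.1%), against 7.10% of 32851 promoter windows and 4.78% of the windows of tested genes. TTGCNNAA was found in 10 members (35.7%, against 10.8% of all windows), TTCNNNGAA in 7 (25%, against 8.30%) and CTGGGAA in 6 (21.4%, against 11.1%). TTCNNNGAA and CTGGGAA can overlap, as they did in *F9*, *Vtn* and *Masp2*. CAAAGTCCA was found in none of the 28 and in 0.475% of all windows. The matches are letters in a window and do not show that a factor bound there.

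The genes of clot breakdown and its control were lower too, with a median log2 fold change of -0.29 over 4 genes. *Plg*, the gene of plasminogen, the precursor of plasmin, stood at 102750 normalized reads in control against 81575 in iFIRKO, for a log2 fold change of -0.33 (-0.35 to -0.31). *Cpb2* encodes TAFI, a carboxypeptidase that protects fibrin from plasmin, so its product acts against that of *Plg*. It had 21027 and 17785 normalized reads, a log2 fold change of -0.24 (-0.28 to -0.20), in the same direction. *Hrg*, which encodes histidine-rich glycoprotein, a plasminogen- and heparin-binding protein, had 39738 and 30601 normalized reads and a log2 fold change of -0.38 (-0.41 to -0.35). *Vtn*, the gene of vitronectin, which stabilizes the inhibitor of plasminogen activators and also blocks the membrane attack complex, had 101939 and 96669 normalized reads. Its log2 fold change of -0.08 (-0.09 to -0.06) was the smallest of these 4.

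The 17 complement genes were more mixed than the coagulation genes. In the iFIRKO library 12 were lower and 5 higher, the median log2 fold change was -0.05, and 1 gene was called lower and 0 higher. The counting interval lay below 0 for 9 genes, above 0 for 3 and included 0 for 5, again without a count over other genes of this level.

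The lectin branch is started by mannose-binding lectins on microbial sugars, which carry MASP proteases. Its 4 genes were near level, with a median log2 fold change of 0.02. *Mbl1* stood at 6241 normalized reads in control against 6908 in iFIRKO, for a log2 fold change of 0.15 (0.08 to 0.22). *Mbl2* had 17121 and 16566, a log2 fold change of -0.05. *Masp2*, whose product cleaves C4 and C2, had 11487 and 10924 normalized reads, a log2 fold change of -0.07. Of its annotated exon length, 54.9% overlaps *Tardbp* on the opposite strand; *Tardbp* had 5037 and 3904 normalized reads, and since no source says whether reads were counted by strand, the *Masp2* value is uncertain. *Masp1* had 2591 and 2741 normalized reads, and at 0.08 (-0.03 to 0.19) on the log2 scale its interval included 0.

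In the classical branch, C1s cleaves C4 and C2, whose fragments form the enzyme that cuts C3. *C1s1* stood at 22284 normalized reads in control against 22162 in iFIRKO, for a log2 fold change of -0.01 (-0.05 to 0.03). *C4b* had 84353 and 77003, a log2 fold change of -0.13 (-0.15 to -0.11). The near-identical paralog *C4a* had 3166 and 4196 normalized reads, a log2 fold change of 0.41 in the opposite direction, and both summed gave -0.11. *C2* had 2515 and 1511 normalized reads, a log2 fold change of -0.73 (-0.87 to -0.60), or 1.66-fold lower.

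The *C2* call rests on a small part of the reads of its locus. *C2* (chromosome 17 of GRCm38, 34862604 to 34898265, reverse strand) lies 85 bases from *Cfb* (34856374 to 34862518, same strand). In GENCODE M21 another gene on that strand, *Gm20547* (34856412 to 34882042), shares 42.8% of the annotated exon length of *C2* and 79.5% of that of *Cfb*. *Gm20547* stood at 60012 normalized reads in control against 54569 in iFIRKO, which was 77.5% and 76.9% of the reads of the 3 genes, while *C2* held 3.25% and 2.13%. The log2 fold change of *Gm20547* was -0.14 (-0.16 to -0.11). Summed over the 3 genes, the locus had 77444 and 70946 normalized reads, a log2 fold change of -0.13 (-0.15 to -0.11), and no complement gene was then past 1.5-fold. Even a loss of all *C2* reads could not bring this sum past 1.5-fold, so the sum does not show whether *C2* itself differed. Because of the shared exons, the separate values of *C2* and *Cfb* are uncertain, and so is the only call among the 36 members.

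**Figure D5:**
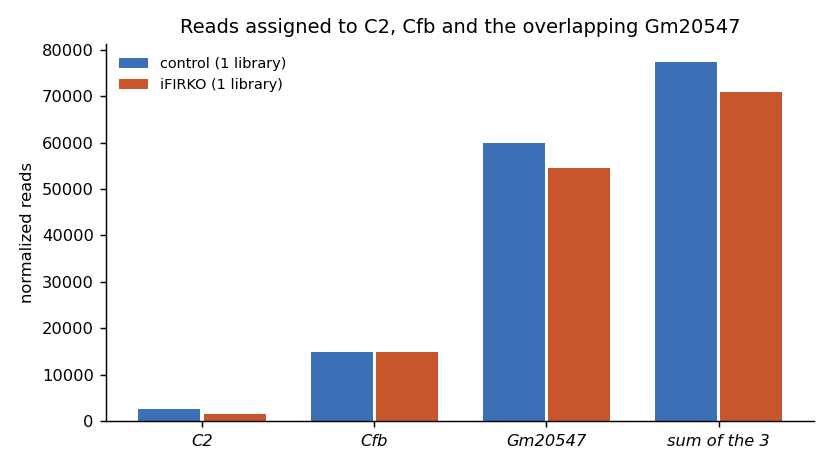
Normalized reads (y axis, from 0) assigned to *C2*, *Cfb*, the overlapping *Gm20547* and their sum in the control and iFIRKO libraries, 1 library each. *Gm20547* holds most of the reads of the locus, with 60012 and 54569, and *C2* the fewest, with 2515 and 1511.

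All branches meet at C3. *C3* had the second highest read number of all 13400 tested genes, with 750380 normalized reads in control and 593856 in iFIRKO. Its log2 fold change was -0.34 (-0.34 to -0.33), or 1.26-fold lower. *Cfb*, which encodes factor B, the protease of the alternative branch, had 14917 and 14866 normalized reads and a log2 fold change of -0.00 (-0.05 to 0.04), with the limit on shared exons given above.

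The regulators went in opposite directions. *C4bp* encodes the C4b-binding protein, which takes apart the classical C3-cutting enzyme, and it had the highest fold change of all members. It stood at 23649 normalized reads in control against 32984 in iFIRKO, for a log2 fold change of 0.48 (0.45 to 0.51), below the 1.5-fold limit. *Cfi*, whose product factor I cuts C4b and C3b and uses the C4b-binding protein as a cofactor, had 36724 and 33997 normalized reads and a log2 fold change of -0.11 (-0.14 to -0.08).

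The membrane attack complex genes differed in direction. *Hc*, the mouse C5 gene, stood at 46258 normalized reads in control against 41100 in iFIRKO, for a log2 fold change of -0.17 (-0.20 to -0.14). *C6* had 4452 and 4404, a log2 fold change of -0.02 (-0.10 to 0.07). *C9*, which encodes the subunit that forms the wall of the pore, had 10191 and 12878 normalized reads, a log2 fold change of 0.34 (0.28 to 0.39). It was the only terminal gene whose counting interval lay above 0. The 3 chains of C8 had unequal folds. *C8a* had 28812 and 24427 normalized reads, a log2 fold change of -0.24 (-0.27 to -0.20). *C8b* had 15731 and 11468, a log2 fold change of -0.46 (-0.51 to -0.41). *C8g*, which encodes a small lipocalin chain and lies on another chromosome than the other chains, had 13277 and 13540, a log2 fold change of 0.03 (-0.02 to 0.08). These 3 counting intervals did not overlap, but they leave out variation between mice, and other sets of genes were not compared in this way. Per kb of exons, the ratio of *C8b* to *C8a* was 0.780 in control and 0.671 in iFIRKO, and that of *C8g* to *C8a* was 1.12 and 1.35.

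The upstream bases of the pair of genes with the highest folds, *C4bp* (chr1:130661619-130661868, reverse strand) and *C9* (chr15:6445096-6445345, forward strand), are shown with the same marking.
C4bp: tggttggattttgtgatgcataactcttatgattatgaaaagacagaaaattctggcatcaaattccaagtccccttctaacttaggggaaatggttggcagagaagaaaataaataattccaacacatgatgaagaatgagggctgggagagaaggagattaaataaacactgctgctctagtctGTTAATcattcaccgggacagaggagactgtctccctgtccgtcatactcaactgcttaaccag
C9: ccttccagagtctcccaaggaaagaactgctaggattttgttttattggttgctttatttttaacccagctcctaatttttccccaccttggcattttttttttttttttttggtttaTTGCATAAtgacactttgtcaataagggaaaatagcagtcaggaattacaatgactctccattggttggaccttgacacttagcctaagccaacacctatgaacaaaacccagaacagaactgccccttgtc
*C4bp* held a match to GTTAAT from -64 to -59, and *C9* a match to TTGCNNAA from -132 to -125. Both kinds of match were also found in members that were lower, such as *Hc* and *Hrg*.

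Genes of both systems often lie side by side, and 13 members had another member within 100 kb on GRCm38. The fibrinogen chains were the closest in fold. *F7* and *F10*, 1498 bases apart on chromosome 8, had log2 fold changes of -0.57 and -0.32. *F11* and *Klkb1*, 4657 bases apart on the same chromosome, had -0.54 and -0.22. *Hrg* and *Kng1* on chromosome 16 had -0.38 and -0.49. *C8a* and *C8b*, 11130 bases apart on chromosome 4 in opposite orientation, had -0.24 and -0.46. *C2* and *Cfb*, the closest pair at 85 bases, were the farthest apart in fold, at -0.73 and -0.00, a difference of 0.73 that carries the limit on shared exons given above. The neighbours had the same sign in every pair, though the interval of *Cfb* included 0. In the pairs other than *C2* and *Cfb*, the values differed by up to 0.32.

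Other genes of both pathways were taken from lists chosen by function. Of 25 further coagulation genes, 23 were tested, of which 0 were called higher and 2 lower, with a median log2 fold change of -0.15. Among all tested genes, 4.46% were called higher and 7.28% lower, so these counts were close to the background. The inhibitors of the protease chain were among the abundant ones. *Serpinc1*, which encodes antithrombin, had 93160 and 87640 normalized reads, a log2 fold change of -0.09 (-0.11 to -0.07). *Serpinf2*, the gene of the plasmin inhibitor alpha2-antiplasmin, had 37629 and 28596, a log2 fold change of -0.40 (-0.43 to -0.36). *Tfpi*, whose product blocks factor VII with tissue factor, had 399 and 269 normalized reads, a log2 fold change of -0.56 (-0.89 to -0.24). *Vkorc1l1*, a relative of the vitamin K reductase, had 1603 and 2131, a log2 fold change of 0.41 (0.28 to 0.54). The 2 called lower, *Plau* (103 and 54.0 normalized reads) and *Plat* (52.6 and 31.8), encode plasminogen activators; the interval of *Plat* included 0 (-1.68 to 0.27), and they were near the expression minimum of 41.8 normalized reads. Of the 23 tested genes, 16 had a log2 fold change below 0 and 7 above. Most were thus lower, as the coagulation members were.

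Of 30 further complement genes, 26 were tested, of which 0 were called higher and 7 lower, with a median log2 fold change of -0.30. The background over all tested genes was 4.46% called higher and 7.28% called lower. C1q, the recognition part of the classical branch, is made by Kupffer cells and other macrophages rather than by hepatocytes. *C1qa* stood at 4584 normalized reads in control against 2777 in iFIRKO, for a log2 fold change of -0.72 (-0.82 to -0.63). *C1qb* and *C1qc* had -0.62 and -0.63. These moved with the Kupffer cell markers, whose median was -0.59, and the part of that in these genes was not tested. The other 4 called lower, *Itgam*, *C5ar1*, *C5ar2* and *Itgax*, encode complement receptors of leukocytes, had at most 182 normalized reads, and the interval of *Itgax* included 0. *Clu*, which encodes clusterin and was among the most abundant genes of the list, had 39477 and 36997 normalized reads, a log2 fold change of -0.09.

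The acute phase list, whose genes share cytokine control with fibrinogen and C3, had 15 genes tested and a median log2 fold change of -0.28. Of these 15, 0 were called higher and 2 lower, against 4.46% and 7.28% of all tested genes. *Apcs*, the serum amyloid P gene, had 10893 and 6011 normalized reads, a log2 fold change of -0.86 (-0.92 to -0.79). Among the near-identical orosomucoid genes, *Orm3* had 853 and 438 normalized reads (-0.96) and *Orm2* had 9111 and 6183 (-0.56). *Orm1*, the main one by reads, had 59848.5 and 48604.3 (-0.30). Reads could be split among these genes, so the *Orm3* call is uncertain. The most abundant, *Hpx* (hemopexin) and *Hp* (haptoglobin), had log2 fold changes of -0.37 and -0.33, close to that of *C3*. The 4 genes above 0 were *Saa1*, *Saa2*, *Saa3* and *Lcn2*, which encode serum amyloid A proteins and lipocalin 2, with log2 fold changes of 0.13, 0.40, 0.49 and 0.34. The other 11 were below 0, so most of this list was lower, as were 12 of the 17 complement genes. Of the 12 regulators of liver genes, 0 were called in either direction. Their log2 fold change was below 0 for 8 and above 0 for 4, with a median of -0.09. *Hnf4a* had 29516 and 28673 normalized reads (-0.04) and *Stat3* 9145 and 8512 (-0.10). *Foxa2* and *Cebpb* were lower, with log2 fold changes of -0.30 and -0.26.

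Ranked by reads per kb of exons, the order of the members was nearly the same in both libraries. *C3* was the highest at 145903 in control and 115469 in iFIRKO, followed by *Fgg*, *Fga*, *Vtn* (50216 and 47620), *Fgb* and *Kng1* (31268 and 22265). *Masp1* (264 and 279), *C2* (650 and 390) and *Pros1* (738 and 620) were the lowest. The level and place of *C2* carry the limit on shared exons given above. The ranks of the 10 highest members were the same in both libraries. The largest change of place was that of *C4bp*, from rank 27 to rank 23.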

How the data were processed

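Total RNA of the liver was made into stranded mRNA libraries (TruSeq) and sequenced on an Illumina NovaSeq instrument, with 1 library per group. Each of the 2 deposited files lists gene symbols with the authors' log2 normalized read counts. The submitters' processing notes give mm10; the aligner, counter and normalization method are not given in the sources used here. Many values were fractions of a read, so no count model was used. The commonest low value was taken as 1 read pair, worth 1.99 normalized reads in control and 2.01 in iFIRKO; 50.2% and 50.1% of values up to 20 pairs were whole pairs within 1%.

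Values were returned to the linear scale. A CPM of 1 was set at 41.8 normalized reads, from the mean total of the libraries. A gene was tested if either library reached this level, and 4.18 was added to each value before the ratio. Positions and lengths came from GENCODE M21 (GRCm38, the same assembly as mm10), which held 93.3% of the symbols, and promoter windows from RefSeq (GRCm38.p6). Exon length was the union of annotated exons. The members, lists and tests were chosen with earlier results of these data known, and the fold limit is that of the study. All members are named. In other lists, the rule names the 2 most abundant genes and, among those reaching a CPM of 5, the 3 with the largest folds. Other names (*Plau*, *Plat*, *Itgam*, *C5ar1*, *C5ar2*, *Itgax*, *C4a*, *Kng2*, *Tardbp*, *Gm20547*, *Saa1*, *Saa2*, *Saa3*, *Lcn2*, *Orm1*, *Gm45753*, *Ahsg*, *Fetub* and *Proz*) were chosen after their values were seen. Of the genes this rule names, 2 are not reported here. The fold calls and intervals were tested on simulated data. Alternatives changed the pseudocount, the minimum, the scaling, the fold limit and the length used. Scripts ran in Python 3.11.15 with scipy 1.17.1, pandas 2.3.3, numpy 2.4.6 and matplotlib 3.10.9.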

Additional observations from a re-analysis of the deposited data

How the results depend on the processing

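The 18 lower coagulation genes and the direction of their median held under every alternative pseudocount, minimum and scaling, and no member was called higher under any of them or with a limit of 2-fold. The median log2 fold change lay between -0.20 and -0.17 for the coagulation genes and between -0.06 and -0.03 for the complement genes. With totals set without the 20 most abundant genes, 1 coagulation gene, *F7*, passed 1.5-fold. The number of complement genes called lower went from 1 to 0 with a limit of 2-fold and, in an alternative chosen after seeing the data, to 0 when *C2* and *Cfb* were summed with *Gm20547*. *C2* holds few of the reads in that sum, so the sum does not bear on the fold of *C2* itself. As CPM of the estimated total reads, *C1s1* and *Cfb* changed sign around 0. No scaling moved the median of all genes by more than 0.015.

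Over all tested genes, against 597 higher and 976 lower in the report, the counts were 371 and 576 when the pseudocount was a CPM of 1, 1960 and 2620 without a minimum, 288 and 440 with a minimum CPM of 5, and 209 and 267 with a limit of 2-fold. By construction, these settings change which low genes are tested, how far their folds are shrunk, or the limit itself. With the longest transcript in place of all exons, *Fgb* over *Fga* per kb was 0.533 in control and 0.522 in iFIRKO, and *C8g* over *C8a* 1.45 and 1.74. The length of *Fgb* is 3810 bases by both measures, so this alternative does not test the length used for *Fgb*. No paired analysis was possible because control and iFIRKO have 1 library each. Counting error is small at these levels, and variation between mice is not known.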

Other observations

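*Hrg* and *Kng1* lie on chromosome 16 beside genes of other secreted liver proteins of the cystatin superfamily, and every such gene of this stretch was lower in iFIRKO. *Ahsg*, which encodes fetuin-A, stood at 292381 normalized reads in control against 225877 in iFIRKO, for a log2 fold change of -0.37 (-0.38 to -0.36). *Fetub*, the gene of fetuin-B, had 19376 and 12442, a log2 fold change of -0.64 (-0.69 to -0.59), past 1.5-fold. *Hrg*, *Kng2* and *Kng1* followed in that order along the chromosome with -0.38, -0.37 and -0.49. These 5 genes were put together after their values were seen, and their likeness was not tested.

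*Proz*, the gene of protein Z, lies next to *F10* and *F7* on chromosome 8. It had 23722 and 21237 normalized reads, a log2 fold change of -0.16 (-0.20 to -0.12), so along these 3 neighbours the values of *F7*, *F10* and *Proz* were -0.57, -0.32 and -0.16. This group too was formed after its values were seen.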
